A study of Mus musculus with 15 samples.

Results

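A set of 8 mouse genes for steroid-converting dehydrogenases were followed through dissected kidney tubules: 4 aldo-keto reductases (Akr1c14, Akr1c21, Akr1c18 and Akr1c19), 3 members of the Hsd3b family (Hsd3b4, Hsd3b2 and Hsd3b3) and Hsd17b11. They are 8 of the 54752 genes in the count table and were found by their gene symbols. They were chosen by enzyme function and with measured values in view, since Akr1c14 had already been called higher in knockout proximal tubule. The difference between knockout and wild type in proximal tubule is therefore given below as a description. Whether the levels in distal tubule were also in view is not recorded, so the tests between segments give the size of a separation and no independent support.

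Claudin-10a is a tight junction protein encoded by Cldn10, and the study compared tubules of Cldn10a knockout mice (KO) with those of wild-type mice (WT). The 15 libraries comprised 4 proximal WT (replicates 1, 2, 3 and 6), 3 proximal KO (replicates 4, 5 and 7), 4 distal WT (replicates 1 to 4) and 4 distal KO libraries (replicates 5 to 8). Each proximal pool held 10 convoluted tubules of a kidney and each distal pool about 20 from mice kept on standard diet. The sources used here do not give strain, age, the extent of the deletion or whether each library came from its own animal. The p-values therefore speak only of spread among these libraries, which may be technical.

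Total counts per library ran from 28729339 to 51764746 (median 42660626), and mitochondrial genes took 67.3 to 82.9%. Cldn10 had 541 to 1514 counts in the proximal WT libraries and 0 in all 3 proximal KO libraries, with 3 to 22 in distal WT and 0 to 24 in distal KO libraries. The summed CPM (counts scaled to a common library size) of 9 early proximal markers were 2556 to 3566 in proximal and 2.27 to 6.84 in distal libraries, and those of 8 distal convoluted markers were 2776 to 3054 in distal and 5.14 to 8.24 in proximal libraries. The labelled segments carried their own markers, but the distal pools also carried genes listed as markers of neighbouring segments. Summed markers of the thick limb (6 genes) were 792 to 1291 CPM in distal and 0.724 to 2.5 CPM in proximal libraries. Those of the collecting duct (7 genes) were 70.8 to 176 and 3.13 to 6.87 CPM. In distal WT libraries Egf (537 CPM on average) and Kcnj1 (180 CPM) gave most of the first sum. Umod had 165, Slc12a1 45.4, Ptger3 2.82 and Cldn16 1.56 CPM. The second sum came mostly from Atp6v1g3 (59.6 CPM), Slc26a4 (40.4 CPM), Foxi1 (22.3 CPM) and Slc4a1 (20.3 CPM). Aqp2 had 4.26 CPM, and Aqp3 had 3.65 CPM against 4.59 CPM in proximal WT. How specific the listed genes are to those segments was not tested. The part of these segments in any gene that is higher in the distal pools, Akr1c19 included, was not tested. In pools of whole tubules, fewer cells of a type and less RNA per cell cannot be told apart.

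Hydroxysteroid dehydrogenases move hydrogen between a hydroxyl and a keto group of a steroid and so switch hormones between more and less active forms. Aldo-keto reductases of the Akr1c subfamily mostly reduce keto groups with NADPH, and some also act on prostaglandins. Hsd3b2 and Hsd3b3 encode enzymes that oxidise and isomerise precursors on the way to progesterone and androgens, whereas the Hsd3b4 enzyme belongs to a branch of the family that reduces ketosteroids. In kidney such enzymes are known for turning over circulating steroids and for limiting the hormone that reaches nuclear receptors.

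The 4 Akr1c genes lie in 1 cluster on chromosome 13 of GRCm38: Akr1c14 (ENSMUSG00000033715) at 4049011 to 4090688 on the + strand, Akr1c18 (ENSMUSG00000021214) at 4132615 to 4150654 on the - strand, Akr1c19 (ENSMUSG00000071551) at 4228700 to 4252843 on the + strand, and Akr1c21 (ENSMUSG00000021207) at 4574075 to 4586541 on the + strand. Each of the 4 has a coding sequence of 969 bases. The first 60 coding bases, from the GENCODE M21 transcripts on GRCm38, are shown because these cluster neighbours turned out to be expressed in opposite segments. Capitals mark the bases that differ from Akr1c21:
Akr1c21: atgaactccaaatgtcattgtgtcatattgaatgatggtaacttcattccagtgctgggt
Akr1c14: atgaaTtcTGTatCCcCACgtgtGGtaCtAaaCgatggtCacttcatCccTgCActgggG
Akr1c19: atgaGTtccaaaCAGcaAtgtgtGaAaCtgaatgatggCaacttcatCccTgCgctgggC
Akr1c18: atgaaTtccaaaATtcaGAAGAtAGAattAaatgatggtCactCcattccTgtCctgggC
Of the 60 positions, Akr1c14 differs at 20, Akr1c18 at 17 and Akr1c19 at 14. Over the whole coding sequence Akr1c21 was 74.2% identical to Akr1c14, 73.8% to Akr1c19 and 76.9% to Akr1c18. No stretch of 50 bases of the Akr1c21 transcript occurs in the transcript of another gene. A read of at least that length that matches it exactly therefore matches no relative. The transcript covers 1207 of the 1502 exon bases of the gene, and how reads were assigned is not given. Akr1c14 shares 5.90% of its 50-base stretches with the overlapping pseudogene Gm18857, and Akr1c19 shares 4.19% with the overlapping pseudogene Marcksl1-ps4. Both pseudogenes had 0 counts in every library.

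The Hsd3b genes lie together on the - strand of chromosome 3, with Hsd3b4 (ENSMUSG00000095143) at 98499071 to 98510514, Hsd3b2 (ENSMUSG00000063730) at 98709255 to 98724543 and Hsd3b3 (ENSMUSG00000062410) at 98741523 to 98763127. Their coding sequences have 1119 bases each. The first 60 of these are shown to let the closeness of the copies be seen, with capitals where a base differs from Hsd3b4:
Hsd3b4: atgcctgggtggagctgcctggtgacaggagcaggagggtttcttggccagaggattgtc
Hsd3b2: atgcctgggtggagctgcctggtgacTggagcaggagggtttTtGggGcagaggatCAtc
Hsd3b3: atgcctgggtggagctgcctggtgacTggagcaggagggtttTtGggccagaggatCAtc
Hsd3b2 and Hsd3b3 were 95.1% identical over the coding sequence, and each was about 81% identical to Hsd3b4 (81.5 and 81.0%). Hsd17b11 (ENSMUSG00000029311; chromosome 5, 103989762 to 104021919, - strand) shares no 50-base stretch with the transcript of another gene.

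The Hsd3b4 counts do not belong to Hsd3b4 alone. Every 50-base and every 100-base stretch of its transcript also occurs in Gm10681, a protein-coding gene at another place in the cluster (98552542 to 98588807), and 85.3% of the 50-base stretches occur in Gm4450 (98445675 to 98457126). In the count table Gm10681 had the same count as Hsd3b4 in 8 of 8 distal libraries and 100.3 to 100.7% of it in the 7 proximal libraries, while Gm4450 had 77.8 to 81.7% of it in the proximal libraries. Values of Hsd3b4 below are therefore values of a group of copies. Hsd3b2 shares 33.6% and Hsd3b3 27.2% of their 50-base stretches with each other, so the split between that pair is uncertain too. Exons of Hsd3b2 and Hsd3b3 also overlap those of Zfp697 on the other strand by 99 and 281 bases, and the sources used here do not say whether counting used strand.

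Promoter sequence was read because neighbours of the Akr1c cluster differed in segment. The 150 bases before the start site, 5′ to 3′ on the gene's strand, come from RefSeq on GRCm38.p6, with any HNF1 half-site (GTTAAT, or ATTAAC on the other strand) in capitals. HNF1 factors are transcription activators of proximal tubule and liver genes. The windows are chr13:4573925-4574074 for Akr1c21, chr13:4059441-4059590 for Akr1c14, chr13:4233590-4233739 for Akr1c19 and chr3:98510473-98510622 for the first of the Hsd3b4 start sites:
Akr1c21: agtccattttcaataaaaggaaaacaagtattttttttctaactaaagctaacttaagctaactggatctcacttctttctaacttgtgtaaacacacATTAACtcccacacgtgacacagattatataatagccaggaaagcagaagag
Akr1c14: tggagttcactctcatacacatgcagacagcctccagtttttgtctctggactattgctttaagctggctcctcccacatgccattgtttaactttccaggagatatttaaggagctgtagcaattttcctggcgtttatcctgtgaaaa
Akr1c19: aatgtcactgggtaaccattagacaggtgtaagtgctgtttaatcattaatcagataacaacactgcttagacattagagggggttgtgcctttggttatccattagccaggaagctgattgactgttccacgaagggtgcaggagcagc
Hsd3b4: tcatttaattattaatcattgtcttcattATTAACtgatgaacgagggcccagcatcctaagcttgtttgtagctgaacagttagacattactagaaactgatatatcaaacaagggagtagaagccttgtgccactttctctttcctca
All 8 genes had an entry in the promoter table. In the full windows of 300 bases (250 before and 50 after the start site), the half-site was found in Akr1c21, 52 bases before the start, and in Hsd3b4, 223 and 121 bases before its first listed start, and in none of the other 6 genes. Among 32851 mouse promoters of that length, 7.10% hold the half-site on either strand and 0.548% hold it at least 2 times. The steroid receptor half-site AGAACA, or TGTTCT on the other strand, held by 19.0% of those promoters, was found in Hsd3b4 and Hsd3b2, and the nuclear receptor half-site AGGTCA, or TGACCT on the other strand, held by 16.3%, was found in Akr1c18 after its start. The TATA box letters TATAAA, or TTTATA on the other strand, held by 13.6%, were found in Hsd3b4 on both strands, as overlapping matches after its first start. The second listed start of Hsd3b4 lies in the same stretch and its window holds the same pair of HNF1 half-sites. A match is a description of the window only. The starts used for Akr1c14 and Akr1c19 lie within the gene spans given above, which begin at 4049011 and 4228700. Sequence before those outer starts was not read. The first listed start of Hsd3b4 also lies within its span, which begins at 98510514 on the - strand. Part of the stretch printed for Hsd3b4 lies after its second listed start, whose own upstream stretch is 98510568 to 98510717.

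Akr1c21 was the most abundant of the 8 in proximal tubule and nearly absent from distal tubule. This aldo-keto reductase acts on keto and hydroxyl groups of androgens and is known as a kidney enzyme of the mouse. It had 324, 388, 385 and 478 CPM in the proximal WT libraries and 433, 292 and 472 CPM in the proximal KO libraries, so the groups overlapped. Distal WT libraries held 16, 71, 0 and 21 counts and distal KO libraries 35, 25, 13 and 25, which is 0.656 and 0.636 CPM on average. The limma log2 difference between proximal and distal tubule was 10.44 ± 0.82 (SE; adjusted p = 2.82e-08) in WT and 9.36 ± 0.40 (adjusted p = 9.97e-10) in KO.

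Akr1c14 was the member that stood apart by genotype. The enzyme is the rodent 3-alpha-hydroxysteroid dehydrogenase, which reduces dihydrotestosterone to androstanediol. It had 0.992, 3.31, 1.84 and 5.55 CPM in the proximal WT libraries (replicates 1, 2, 3 and 6; 48 to 244 counts) and 24.5, 23.0 and 10.4 CPM in the proximal KO libraries (replicates 4, 5 and 7; 472 to 925 counts). All 3 KO libraries lay above all 4 WT libraries, and KO replicate 7 came closest to WT replicate 6. The group means were 2.92 ± 2.0 CPM (SD, n = 4) and 19.3 ± 7.75 CPM (SD, n = 3), and the fitted log2 difference was 2.90 ± 0.44 (SE). Distal libraries held 0 to 2 counts in WT and 1 to 5 in KO.

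Hsd17b11 was the other member whose proximal groups did not overlap. Its enzyme, a short-chain dehydrogenase of the endoplasmic reticulum and lipid droplets, oxidises androstanediol. WT libraries had 19.8, 29.1, 21.6 and 31.5 CPM and KO libraries 41.3, 36.8 and 56.9 CPM, a fitted log2 difference of 0.81 ± 0.21 (SE). Hsd17b11 had 143 to 256 counts in the distal libraries. Its distal means were 4.90 ± 0.73 CPM in WT and 4.70 ± 0.83 CPM in KO (SD, n = 4 each).

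**Figure D1:**
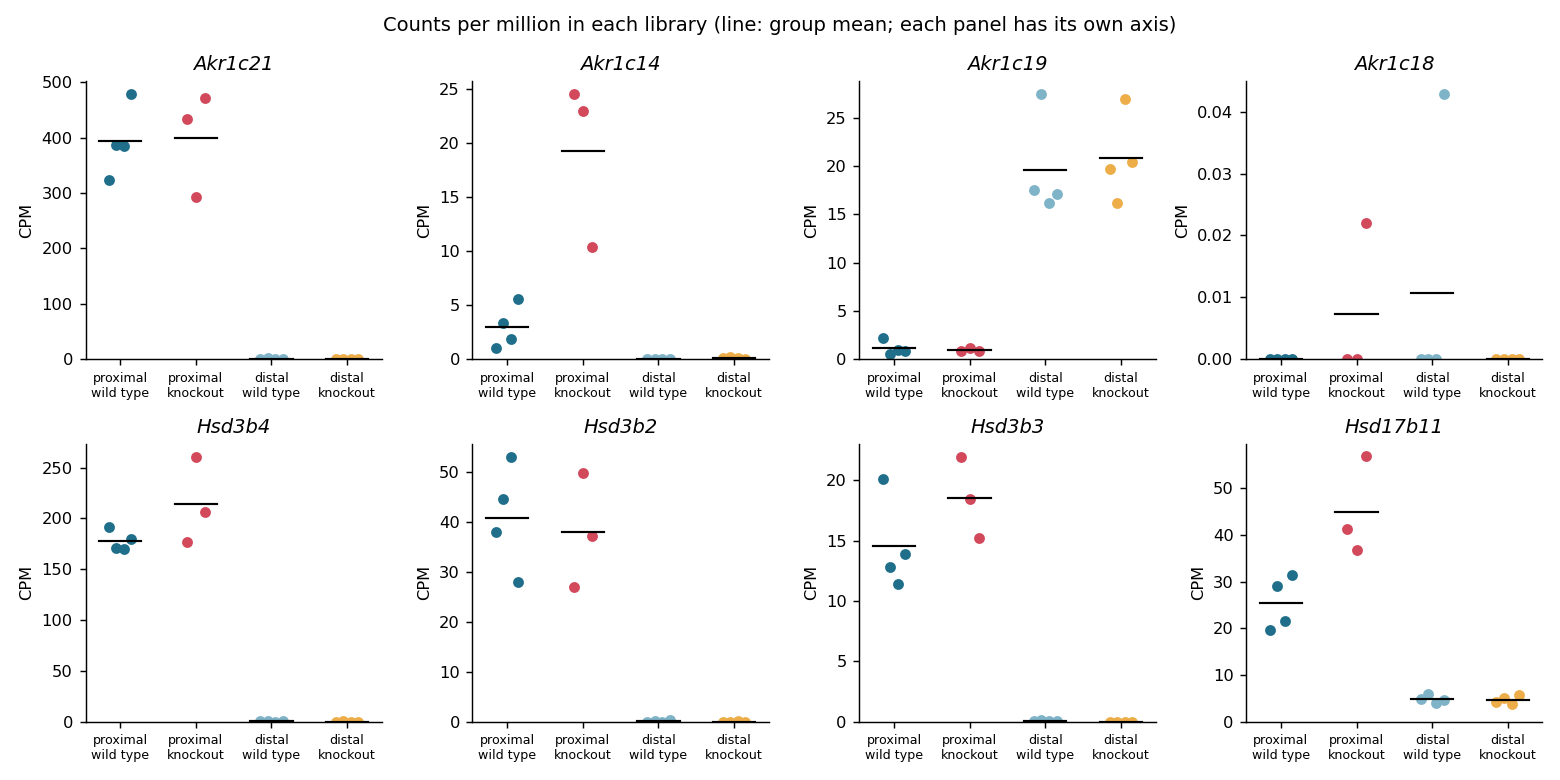
CPM (y axis, linear, its own scale in each panel) of the 8 genes in the 4 groups (x axis); points are libraries and lines group means. Akr1c14 and Hsd17b11 are higher in all 3 proximal KO libraries than in any proximal WT library, Akr1c19 is the gene with its higher values in distal tubule, and Akr1c18 has at most 2 counts in a library.

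The Hsd3b genes were read almost wholly in proximal tubule. Hsd3b4, with its copies, had 192, 171, 170 and 180 CPM in proximal WT and 177, 260 and 206 CPM in proximal KO libraries. Hsd3b2 had 37.9, 44.6, 52.9 and 27.9 CPM in WT and 27.0, 49.8 and 37.1 CPM in KO. Hsd3b3 had 20.1, 12.8, 11.4 and 13.9 CPM in WT and 21.9, 18.5 and 15.2 CPM in KO. Proximal WT and KO libraries overlapped for each of the 3 genes. In distal libraries Hsd3b4 had 2 to 31 counts, Hsd3b2 0 to 16 and Hsd3b3 0 to 8.

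Akr1c19 was the exception among the members. This cluster neighbour encodes another dehydrogenase of the subfamily. It had 17.5, 27.5, 16.2 and 17.2 CPM in distal WT and 19.7, 16.2, 26.9 and 20.5 CPM in distal KO libraries, against 2.19, 0.518, 0.947 and 0.864 CPM in proximal WT and 0.864, 1.09 and 0.859 CPM in proximal KO libraries. Every distal library lay above every proximal one. The log2 difference of proximal against distal was −4.28 ± 0.36 (SE; adjusted p = 5.03e-08) in WT and −4.43 ± 0.34 (adjusted p = 1.5e-07) in KO. Akr1c18, which encodes the 20-alpha-hydroxysteroid dehydrogenase that inactivates progesterone, had 2 counts in 1 distal WT library, 1 count in 1 proximal KO library and 0 in the other 13, below the filter of every comparison.

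Between segments, 7 of the 8 genes passed the filter and all 7 were called in both genotypes by limma with Benjamini-Hochberg adjustment over all genes. Of these, 6 were higher in proximal tubule, where 23.6% of all tested genes were called higher in WT and 20.4% in KO. Akr1c19 was higher in distal tubule, where 25.1% of genes in WT and 20.2% in KO were called. Beside the values above, the WT log2 differences were 9.11 ± 0.42 for Hsd3b4, 9.54 ± 1.02 for Hsd3b2, 7.20 ± 0.71 for Hsd3b3, 6.54 ± 1.14 for Akr1c14 and 2.34 ± 0.19 for Hsd17b11 (SE; adjusted p from 9.32e-11 to 0.000149). Of these 7, only Akr1c19, Akr1c21 and Hsd17b11 passed the filter within the distal libraries alone. The other 4 passed through the proximal group in which they are high, so the count of calls gives no support.

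In KO the corresponding values were 10.51 ± 0.57 for Hsd3b4, 10.24 ± 0.85 for Hsd3b2, 7.77 ± 0.87 for Akr1c14 and 3.26 ± 0.22 for Hsd17b11 (adjusted p from 7.35e-09 to 4.74e-06). Hsd3b3 had 0 counts in all 4 distal KO libraries, so its level in proximal KO tubule was at least 239-fold higher (floor: 3 counts in each distal library). The WT and KO comparisons use different libraries.

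The low-segment signal differed in size among the members. Relative to its mean in the higher segment, the lower segment had 0.167% for Akr1c21, 0.207% for Hsd3b4, 0.266% for Hsd3b2, 0.562% for Akr1c14 and 0.632% for Hsd3b3 in WT. The 9 early proximal markers had 0.0518 to 0.447% in distal WT tubule. The Akr1c14 value rests on 3 counts and that of Hsd3b3 on 15 counts over the 4 distal WT libraries. Akr1c19 had 5.76% in proximal WT tubule, where the 8 distal convoluted markers had 0.0231 to 7.17% (median 0.103%). Hsd17b11 had 19.2% in distal WT tubule. The 10 markers of the straight proximal segment with enough counts had 0.0820 to 20.9% there (median 0.964%), with Ghr at 20.9% and Atp11a at 20.5%. In KO these shares were 4.51% for Akr1c19, 10.4% for Hsd17b11, 0.447% for Akr1c14 and 0% for Hsd3b3, and the early proximal markers had 0.0254 to 0.771%.

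**Figure D2:**
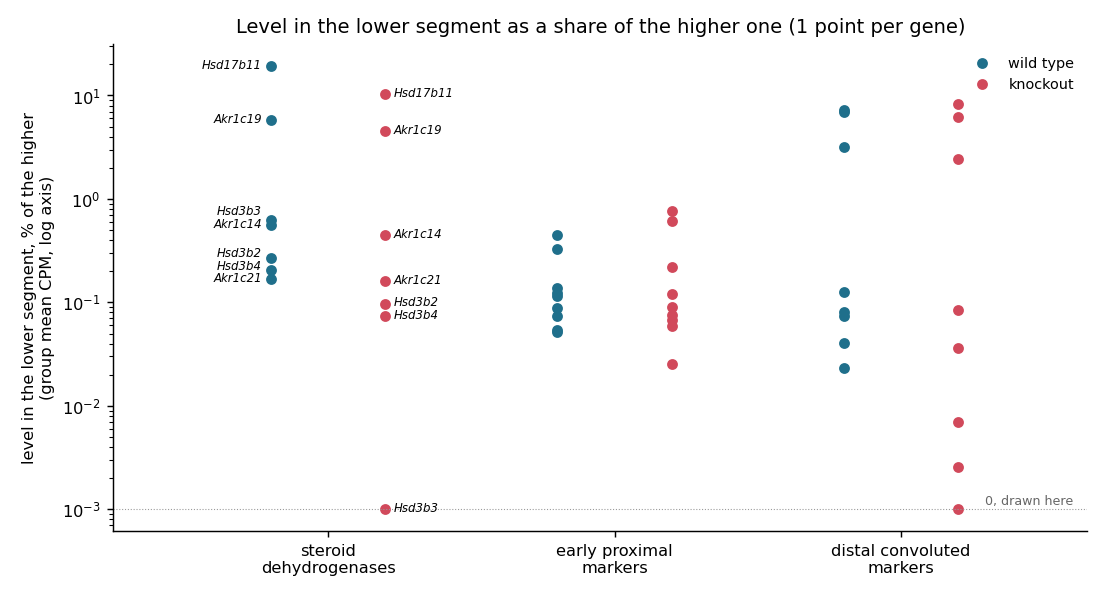
Level in the segment with the lower mean as a percent of the level in the other segment (y axis, log scale, from group mean CPM) for the 7 dehydrogenases with 3 or more counts and for 2 marker lists, in WT and KO; each point is a gene, and values of 0 are drawn on the dotted line. Hsd17b11 (19.2% in WT) lies above the early proximal markers, whose highest WT value is 0.447%. Akr1c19 (5.76%) lies below the highest of the distal convoluted markers (7.17%). Markers of the straight proximal segment, which reach 20.9% in WT, are not drawn.

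Levels between genes were compared as CPM per kilobase of the principal transcript. Counts are per gene, so the order can depend on the transcript chosen. That transcript has 1122 of 3695 exon bases for Hsd3b2, 1533 of 6396 for Hsd3b3 and 1825 of 3265 for Hsd17b11. In proximal WT tubule the order was Akr1c21 (326 ± 52.8), Hsd3b4 with its copies (111 ± 6.33), Hsd3b2 (36.4 ± 9.44), Hsd17b11 (14.0 ± 3.13), Hsd3b3 (9.49 ± 2.49), Akr1c14 (0.918 ± 0.627) and Akr1c19 (0.194 ± 0.125), all as CPM per kilobase with SD over 4 libraries. Hsd17b11 and Hsd3b3 overlapped between libraries, and so did Akr1c14 and Akr1c19, while the other neighbours in that order did not. In proximal KO tubule the order was the same, but Hsd3b2 and Hsd17b11 overlapped: Hsd3b2 had 24.1 to 44.4 and Hsd17b11 20.2 to 31.2 CPM per kilobase. Akr1c14 reached 6.06 ± 2.43 there (SD, n = 3), apart from both its neighbours in the order.

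In distal tubule Akr1c19 came first, with 3.36 ± 0.907 CPM per kilobase in WT and 3.57 ± 0.770 in KO (SD, n = 4 each). Hsd17b11 followed with 2.69 ± 0.402 and 2.57 ± 0.455, and the libraries of these genes overlapped in both genotypes. Akr1c21 came next with 0.544 ± 0.570 in WT and 0.527 ± 0.208 in KO. Within the Akr1c cluster on chromosome 13, Akr1c21 made up 99.4% of the summed level per length in proximal WT and 97.7% in proximal KO tubule, with Akr1c14 at 0.263 ± 0.144% and 1.93 ± 1.04%. In distal WT tubule Akr1c19 made up 48.4 ± 4.47% of it.

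**Figure D3:**
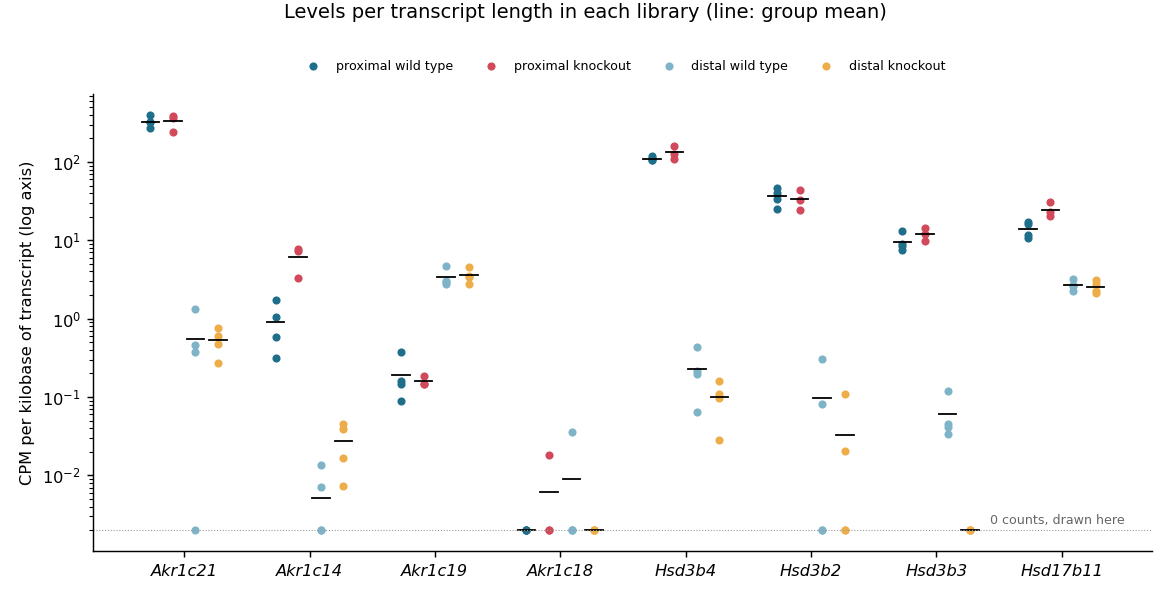
CPM per kilobase of principal transcript (y axis, log scale) in each library for the 8 genes; colours are the 4 groups, lines the group means, and libraries with 0 counts are drawn on the dotted line. In proximal WT tubule the means run from 326 CPM per kilobase for Akr1c21 down to 0.194 for Akr1c19, with Akr1c18 at 0, and Akr1c19 and Hsd17b11 lead in distal tubule.

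Knockout and wild-type proximal tubule differed for few members. limma called 1 of the 7 tested, Akr1c14, where 0.166% of 13229 genes were called in either direction, and this is the comparison that the choice of genes used. The groups did not overlap for 2 of the 7, Akr1c14 and Hsd17b11, against 7.91% of all genes. For the others the log2 differences were 0.35 ± 0.21 for Hsd3b3, 0.24 ± 0.15 for Hsd3b4, −0.01 ± 0.19 for Akr1c21, −0.09 ± 0.46 for Akr1c19 and −0.12 ± 0.23 for Hsd3b2 (SE). The 95% interval of Akr1c21, the leading gene, ran from −0.42 to 0.40. The signs for Akr1c21, Akr1c19 and Hsd3b2 turned under at least 1 alternative. The median of the 7 was 0.24, against −0.01 over all genes.

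The authors' deposited table of the same comparison gives Akr1c14 a log2 fold change of 2.71 with an adjusted p of 0.00992 and Hsd17b11 one of 0.81 with an adjusted p of 0.0318. limma did not call Hsd17b11 when the 7 proximal libraries were fitted alone, and called it when all 15 libraries shared 1 estimate of spread (log2 difference 0.83 ± 0.17). The call of Akr1c14 was lost without WT replicate 1, 2 or 3 or KO replicate 4 or 5, with log2 differences from 2.48 to 3.07 in those fits.

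The proximal libraries carry 2 series of description numbers, and WT replicate 6 and KO replicate 7 belong to the smaller one. What these numbers stand for is not stated. Between these 2 libraries Akr1c14 was 1.87-fold higher in KO, whereas among the other 5 it was 11.6-fold higher by group means. Hsd17b11 was 1.8-fold and 1.66-fold higher in KO in the same sets. The smaller series has 1 library per genotype, so no spread can be given there. With the number series as a covariate the log2 difference of Akr1c14 was 2.88 ± 0.46 (SE).

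Markers of positions along the proximal tubule were read beside these differences. The summed CPM of 13 markers of the straight segment was 406, 519, 325 and 568 in WT replicates 1, 2, 3 and 6 and 943, 936 and 1018 in KO replicates 4, 5 and 7, with no overlap and none of the 13 at 0 in either group. Of the 12 that passed the filter, 11 had a log2 difference above 0 and 2 were called, Atp11a (1.62 ± 0.25) and Acy3 (1.12 ± 0.19). Over all genes, 0.166% were called in this comparison. Acy3 gave the largest part of the straight-segment sum, at 231 CPM in WT and 506 CPM in KO on average. By CPM the groups overlapped for Slc7a13 (2.16 to 47.3 in WT, 34.3 to 86.2 in KO), Slc5a10, Napsa, Agt, Cyp7b1, Slc22a7 and Slc22a19. They lay apart for Acy3, Atp11a, Ghr, Aadat, Slco1a6 and Slc22a13, where 7.91% of all genes had groups that did not overlap. The sum of the 9 early markers was 3566, 3333, 3550 and 2940 in WT and 2556, 2821 and 2947 in KO, with all 9 log2 differences below 0, 0 called and none at 0. The early sums overlapped between genotypes, since KO replicate 7 lay just above WT replicate 6. Both marker lists were chosen with earlier results of these data known. Their counts of signs and calls are therefore a description and give no independent support. Akr1c14 was highest in KO replicates 4 and 5, which had the lowest early-marker sums. It was lowest in WT replicates 1 and 3, where those sums were highest. The straight-segment sums did not follow Akr1c14 within KO, where replicate 7 had the highest sum (1018) and the lowest Akr1c14 (10.4 CPM). In WT, replicate 6 had the highest of both. WT replicate 3 had the lowest straight-segment sum (325) but more Akr1c14 (1.84 CPM) than replicate 1 (0.992 CPM). The part of segment position in the Akr1c14 and Hsd17b11 differences was not tested.

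**Figure D4:**
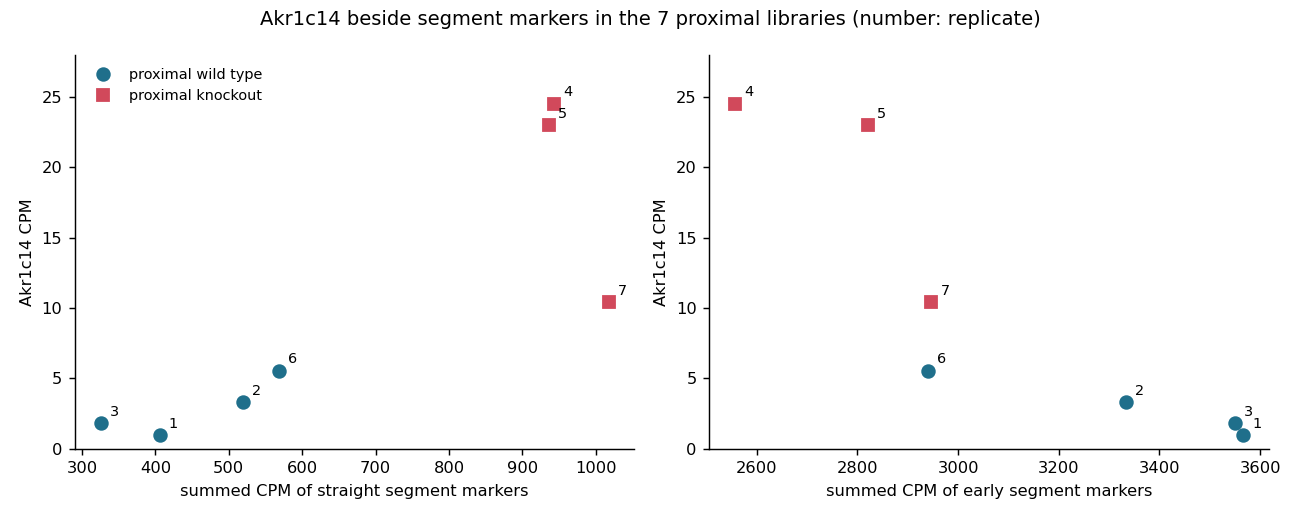
Akr1c14 CPM (y axis) against the summed CPM of straight-segment markers (left x axis) and early-segment markers (right x axis) in the 7 proximal libraries; circles are WT, squares KO, and numbers replicates. Straight-segment sums are 325 to 568 in WT and 936 to 1018 in KO, and WT replicate 6 and KO replicate 7 have early-segment sums of 2940 and 2947.

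Other cell types were read beside these genes. Summed endothelial markers (8 genes, none at 0) were 12.2 to 22.7 CPM in proximal WT and 18.6 to 35.7 CPM in proximal KO libraries. Summed immune markers (8 genes) were 0.205 to 0.758 and 0.947 to 2.06 CPM, without overlap, with Cd3e and Cd79a at 0 in both groups and Lyz2 at 0 in WT. Csf1r made up most of that sum in KO, at 1.12 CPM on average against 0.276 CPM in WT, and its own groups overlapped, while Cd68 and C1qa had lower means in KO. Their part in the proximal differences was not tested. Of 10 markers of adrenal and gonadal steroid synthesis, 7 in proximal WT and 9 in proximal KO libraries had 0 counts in the whole group, among them Nr5a1. Star had 4 to 20 counts in a proximal library.

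Only 3 members passed the filter for the genotype comparison in distal tubule. limma called 0 of the 3 and 0% of 12968 genes, with 925 genes and 0 members at an unadjusted p under 0.05, and sample quality weights called 0 members too. Akr1c19 had 19.6 ± 5.29 CPM in WT and 20.8 ± 4.49 CPM in KO (SD, n = 4 each), a log2 difference of 0.09 ± 0.18 (SE; adjusted p = 0.935; 95% interval −0.28 to 0.47). Hsd17b11 had a log2 difference of −0.07 ± 0.20 (adjusted p = 0.966; −0.48 to 0.34). The distal groups did not overlap for 0 of the 3, against 3.79% of all genes.

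Akr1c21 in distal tubule shows how few counts carry that comparison. Its fitted log2 difference was 1.09 ± 0.89 (SE; adjusted p = 0.808), although the mean CPM of KO was slightly below that of WT. WT replicate 3 had 0 counts, and without it the log2 difference was −0.36 ± 0.52. Hsd3b3 did not pass the filter, with 2, 8, 2 and 3 counts in distal WT and 0 in each distal KO library. The early proximal marker sum was 2.97 to 6.38 CPM in distal WT and 2.27 to 6.84 CPM in distal KO libraries.

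**Figure D5:**
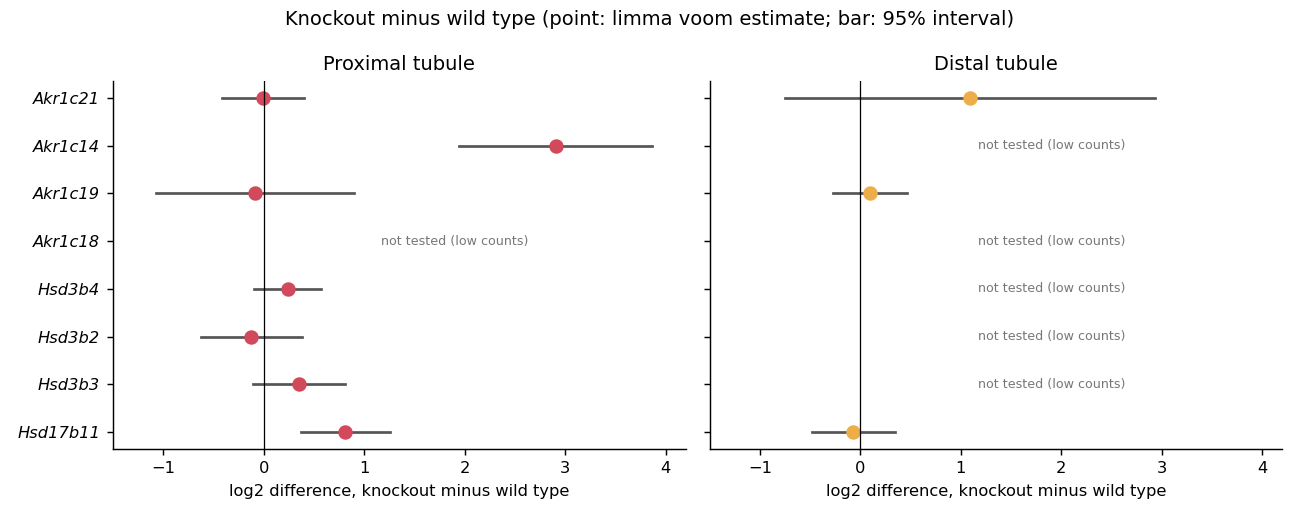
Log2 difference, KO minus WT (x axis), for each gene (y axis) in proximal and distal tubule; points are limma voom estimates and bars 95% intervals. Akr1c14 (2.90) and Hsd17b11 (0.81) have proximal intervals above 0, those of the other 5 tested genes include 0, and 5 genes had too few counts for the distal fit.

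The difference between the segments' genotype effects was fitted over all 15 libraries. limma called 0 of 7 members and 0% of 15279 genes, with 849 genes and 2 members at an unadjusted p under 0.05. Those were Hsd17b11, with 0.90 ± 0.30 (log2, SE; adjusted p = 0.695), and Hsd3b3, whose value rests on distal groups of 15 and 0 counts in all (adjusted p = 0.746). Sample quality weights also called 0 members. The interval of Akr1c14 ran from −2.77 to 5.24, since distal libraries held at most 5 counts of it. This fit contains the proximal comparison used in choosing the genes.

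Other genes of the same families gave context. In the Akr1c cluster, Akr1c12 and Akr1c13 were also higher in distal tubule, as Akr1c19 was, with 1.65 ± 0.391 and 2.31 ± 1.07 CPM in distal WT against 0.421 ± 0.169 and 0.879 ± 0.679 CPM in proximal WT (SD, n = 4). Their log2 differences were −2.01 ± 0.40 (adjusted p = 0.000587) and −1.69 ± 0.48 (adjusted p = 0.00739). These 2 genes are 96.2% identical in coding sequence, and each is about 78% identical to Akr1c19 (78.0 and 77.9%), so the split between them is uncertain. Akr1c6 had at most 3 counts in a library, Akr1c20 at most 4, and Akr1cl 0. Of the remaining Hsd3b genes, Hsd3b5 and Hsd3b6 had counts mainly in proximal tubule, with 10.1 ± 1.08 and 1.85 ± 0.276 CPM in proximal WT. In coding sequence Hsd3b5 is 95.2% identical to Hsd3b4, and Hsd3b6 is 94.4% identical to Hsd3b2. The split of these 2 genes from those members is therefore uncertain too.

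Neither of these family lists had a called member between genotypes in either segment: 0 of 2 Akr1c genes and 0 of 3 Hsd3b genes with Nsdhl, a cholesterol synthesis enzyme, in proximal tubule. Over all genes, 0.166% were called between genotypes in proximal and 0% in distal tubule. Of 6 other Hsd17b-type genes tested between segments in WT, 3 were called higher in proximal and 2 in distal tubule. The shares over all genes were 23.6% and 25.1%. Hsd17b14 was distal, with 0.971 ± 0.567 CPM against 1 count in all proximal WT libraries. Dhrs11 was distal too (−1.76 ± 0.30, log2, SE), and Hsd17b4, an enzyme of peroxisomal oxidation, was higher in proximal tubule (0.66 ± 0.13). Among 6 other aldo-keto reductases, 4 were called higher in proximal and 1, Akr1b3, in distal WT tubule, against the same shares over all genes. Akr1a1, a general aldehyde reductase, led them with 383 ± 36.0 CPM in proximal and 47.6 ± 2.02 CPM in distal WT (SD, n = 4).

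Among genes of glucocorticoid handling, some were higher in the distal and some in the proximal pools. Hsd11b2, which inactivates corticosterone and so protects the mineralocorticoid receptor, had 43.4 ± 11.7 CPM in distal and 0.0510 ± 0.0377 CPM in proximal WT tubule, and Nr3c2, that receptor, 16.4 ± 2.78 and 1.29 ± 0.330 CPM. H6pd, which supplies NADPH to the reductase Hsd11b1, had 42.4 ± 4.66 CPM in proximal and 4.72 ± 0.706 CPM in distal WT. The collecting duct sum given above, mostly of Atp6v1g3, Slc26a4, Foxi1 and Slc4a1, was high in the same distal pools. Distal KO replicate 5 had both the lowest such sum (70.8 CPM) and the lowest Hsd11b2 level (9.71 CPM) of the distal libraries. The part of cells with those markers in the Hsd11b2 and Nr3c2 values was not tested.

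In the same list, Hsd11b1 and Srd5a2 had the smallest p between genotypes in proximal tubule, and neither passed the test. Hsd11b1 had 0.331, 0.891, 0.834 and 1.64 CPM in WT and 2.67, 3.13 and 2.31 CPM in KO (log2 difference 1.74 ± 0.40, SE; adjusted p = 0.135). Srd5a2, a 5-alpha-reductase that makes dihydrotestosterone, had 0.310, 0.953, 0.341 and 0.955 CPM in WT and 1.70, 1.79 and 1.30 CPM in KO (1.5 ± 0.43; adjusted p = 0.297). The groups did not overlap for these 2 of the 5 tested genes of that list, against 7.91% of all genes, and 0 of the 5 were called. Among other low-count genes, the groups overlapped for Srd5a3, Hsd17b2, Akr1d1 and Esr1. Of the sulfation genes 0 of 4 and of the steroid receptors 0 of 5 were called between genotypes in proximal tubule. The share called over all genes there was 0.166%.

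Across the 7 proximal libraries, the genes with the pattern most like each member were sought among 6582 genes by Pearson r of log2 CPM. Akr1c14 was most like Them4 (r = 0.98), Ehhadh (0.97) and Treh (0.97), with r of 0.94, 0.92 and 0.89 for deviations from the group means. Hsd17b11 was most like Ddx20 (0.98), Slc41a2 (0.97) and Gpd2 (0.97), with 0.94, 0.96 and 0.90 for deviations. Akr1c21 was most like Apoo, Mast3 and Pla2g12a (0.97 each), Hsd3b4 like Slc30a9, Setd2 and Txnrd1 (0.98 each), Hsd3b2 like Arhgef10l, Unc5c and Itga6 (0.97 to 0.99), and Hsd3b3 like Rnf213, Atp1b1 and Dhx33 (0.96 to 0.98). These are the highest of many values over 7 libraries that share scaling, and no p is given.

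Correlations between members were mixed. Over the same 7 libraries the highest r between members was 0.83, for Akr1c14 and Hsd17b11, and was 0.39 for deviations from group means. Akr1c21 and Hsd17b11 had an r of 0.46, and 0.81 for deviations. The lowest was −0.63, for Akr1c21 and Hsd3b2. Between cluster neighbours r was 0.15 for Akr1c14 and Akr1c21 and −0.44 for Hsd3b2 and Hsd3b3.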

How the data were processed

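Bulk RNA of 15 pools of dissected tubules was sequenced. Extraction used an RNeasy Plus Micro kit and library preparation Nextera XT, per the labels. According to the submitters' processing notes, the tools and build were CASAVA 1.8, STAR 2.5, DESeq2 1.24.0 and GRCm38. The sources used here do not give the counting program or its settings. The authors deposited whole-number counts per gene, which other tables of theirs turn into log2 fold changes and p-values; the sign of those fold changes is not stated and was read from Cldn10.

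The counts were analysed with limma 3.58.1 in R 4.3.3 (voom, prior count 0.5), with trimmed-mean scaling (trimming 30% by log ratio and 5% by intensity). Genes were kept with about 10 counts in a number of libraries equal to the smallest group and 15 counts in total. Since the layout of the count table kept its unit from being recorded as counts, no count model was run. A gene was called where its p, adjusted by Benjamini and Hochberg over all tested genes, was under 0.05. CPM come from 1 scaling of all 15 libraries; CPM per kilobase use the principal GENCODE M21 transcript. Of 54752 genes, 54723 have a symbol, and all columns were matched to samples. Libraries held 28729339 to 51764746 counts, and 1 count was worth 0.0189 to 0.0345 CPM; floors of 3 counts reflect counting error alone, because reads that carry no molecular identifiers do not stand for independent molecules. Replicates of a group correlated at r = 0.944 to 0.970 (log2 values), so no replicates held identical values. The fits were tested on simulated data. Sequences were read with Biopython 1.88.

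The members and the gene lists were chosen with earlier results of these data known. All 8 members are named; of every other steroid gene list, up to 4 genes with the smallest p in a contrast; and for each member of at least 2 CPM in proximal tubule the 3 most alike genes. Alternatives were other scaling, filters, weights, thresholds and fits, mitochondrial genes left out, each library left out, the description number series, and the title number as a block.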

Additional observations from a re-analysis of the deposited data

Results flagged for a closer look

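Akr1c19 in the distal WT group had 1 library far from the others: replicate 2 had 27.5 CPM, against 16.2 to 17.5 CPM in the other 3, a gap of 0.881 of the whole range. Hsd3b3 in the same group did likewise, with 8 counts (0.183 CPM) in replicate 2 and 2 or 3 counts in the others, a gap of 0.868 of the range. Both exceed Dixon's 95% limit for 4 libraries, which chance passes in about 1 in 20 groups. The same library had the highest counts of Akr1c21 (71) and Hsd3b4 (31) of the distal WT group. Its early proximal marker sum was also the highest (6.38 CPM, against 2.97 to 3.13 CPM). Akr1c19 averaged 1.13 CPM in proximal WT and 19.6 CPM in distal WT tubule. The part of proximal tubule in the values of Akr1c19 and Hsd3b3 in that library was not tested.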

How the results depend on the processing

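The 7 calls between segments held under all 18 alternatives in WT and all 17 in KO, and no member was called in distal tubule (16 alternatives) or for the interaction (23). In proximal tubule the count of 1 called member became 2 with 1 fit of all 15 libraries and ranged from 0 to 1 when 1 library was left out, being 0 without WT replicate 1, 2 or 3 or KO replicate 4 or 5. Over all genes the 22 calls there became 2 without WT replicate 1, 80 with no filter and 123 in the fit of all libraries. Akr1c14 stayed between 2.48 and 3.69 (log2) and Hsd17b11 between 0.62 and 0.95.

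Values near 0 changed sign. In proximal tubule Akr1c21 became 0.13 with sample quality weights and 0.0039 in 1 fit of all libraries. With 1 library left out it ran from −0.16 to 0.20 (above 0 without WT replicate 6, at 0.09, or KO replicate 5), Akr1c19 from −0.39 to 0.29 (above 0 without WT replicate 1), and Hsd3b2 from −0.34 to 0.074 (above 0 without WT replicate 3, at 0.00079, or KO replicate 4). In distal tubule Akr1c21 ran from −0.36 (without WT replicate 3) to 2.05, Akr1c19 from −0.039 (without KO replicate 7) to 0.28, and Hsd17b11 from −0.18 to 0.027 (above 0 without WT replicate 2 or, at 0.02, KO replicate 7). For the interaction Akr1c21 ran from −2.04 to 0.36 (above 0 without distal WT replicate 3), Akr1c19 from −0.48 to 0.21 (above 0 without proximal WT replicate 1), and Hsd3b2 from −0.24 (without distal WT replicate 4) to 1.57. The cause was not tested.

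Title numbers shared between segments are not stated to mark an animal, and same-numbered pairs did not deviate together (r = −0.08, −0.06 and 0.06 in WT, −0.17 and −0.45 in KO). With the title number as a replicate block, all 7 members stayed called in both genotypes, and the calls over all genes went from 6631 to 5840 in WT and from 5622 to 3238 in KO. No pairing was possible between genotypes, which share no number within a segment. Without mitochondrial genes in the total, levels were higher throughout (Akr1c21 1670 CPM in proximal WT). Depth limits the distal values, where 5 members had at most 31 counts in a library.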
